A study of Drosophila melanogaster with 6 samples.

Results

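The comparison described here sets the transcriptome of adult Drosophila ventral nerve cords (VNCs) carrying pros Syp tumors against that of tumor-free wild-type VNCs. All columns of these 2 groups in the deposited count table were taken, 4 of the 6 libraries of the series, with 2 libraries per group. In the pros Syp tumors, prospero (pros) and Syncrip (Syp) were knocked down together by RNAi, with Dicer-2 supplied from a transgene to strengthen the knockdown, under the poxn-Gal4 driver (poxn > prosRNAi, SypRNAi). The reference VNCs are labelled only as WT. The other group of the series, pros tumors (poxn > prosRNAi, again with transgenic Dicer-2), is used in 1 comparison only. All flies were 6 days old according to the labels, whereas the methods give a slightly older age for the tumor VNCs. The poxn driver is active in a few neuroblasts of the thoracic VNC, so each tumor sample mixes tumor with the whole surrounding nerve cord. Tumor RNA came from VNCs of both sexes, pooled within a condition, and its duplicate samples are described as technical replicates. Errors and p-values therefore cover the spread between such samples, which may be technical. The driver, transgenes and sex make-up of the wild-type VNCs are not given in the sources used here, so the effects of the 2 knockdowns cannot be told apart from those of the transgenes or of the genetic background.

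Neuroblasts (NBs) are the stem cells of the insect central nervous system. They divide asymmetrically, keeping a stem cell and budding off a precursor in which the transcription factor Prospero stops self-renewal and starts differentiation. Without Prospero in their progeny, NBs of the early larva amplify and form tumors that can outlive the larva. NBs also carry a clock: the RNA-binding protein Imp and the transcription factor Chinmo mark their early, highly proliferative state, and the RNA-binding protein Syncrip and the ecdysone-induced factor Eip93F mark the late state that ends with NBs leaving the cell cycle before adulthood. Imp and Syncrip repress each other, which makes the removal of Syncrip a way to keep a tumor on the early side of the switch.

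The tumor and wild-type libraries hold between 106102332 and 128107088 counts each, and 14289 of the 17494 genes in the table passed the filter on low counts. Levels are given as CPM, read counts scaled to a common library total after TMM normalization. Differences are given as log2 fold changes (pros Syp tumors over wild type) ± a standard error. That error was derived from the fitted coefficient and the edgeR quasi-likelihood test statistic, and is approximate. Adjusted p is the Benjamini-Hochberg value over all 14289 genes, a gene is called when it is under 0.05, and only called genes are said to rise or fall. A level in CPM does not account for gene length, so it is compared between libraries and not between genes. Genes of the ribosomal RNA held 20.7% and 22.8% of the counts in the pros Syp tumors, against 20.3% and 14.6% in wild type, and the mitochondrial genome held 1.79% and 1.71% against 3.97% and 4.94%. The 2 samples of each group differed by more than counting noise, so none was a copy of another.

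The adult tumor and its host VNC differed from the wild-type VNC at most genes. At adjusted p under 0.05, 5685 genes were higher in the pros Syp tumors (39.8% of those tested) and 5250 were lower (36.7%). Asking in addition for a change of at least 2-fold left 3505 higher (24.5%) and 3913 lower (27.4%). Changes of at least 16-fold were called upwards at 420 genes and downwards at 173 genes. The median log2 fold change over all genes tested was 0.04, with quartiles at -1.32 and 1.06. Each count of a gene group given hereafter is to be read against these shares, since about 3 genes in 4 passed the test in one direction or the other. In bulk samples such as these, a change in the number of cells of a type and a change in RNA per cell cannot be told apart.

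**Figure D1:**
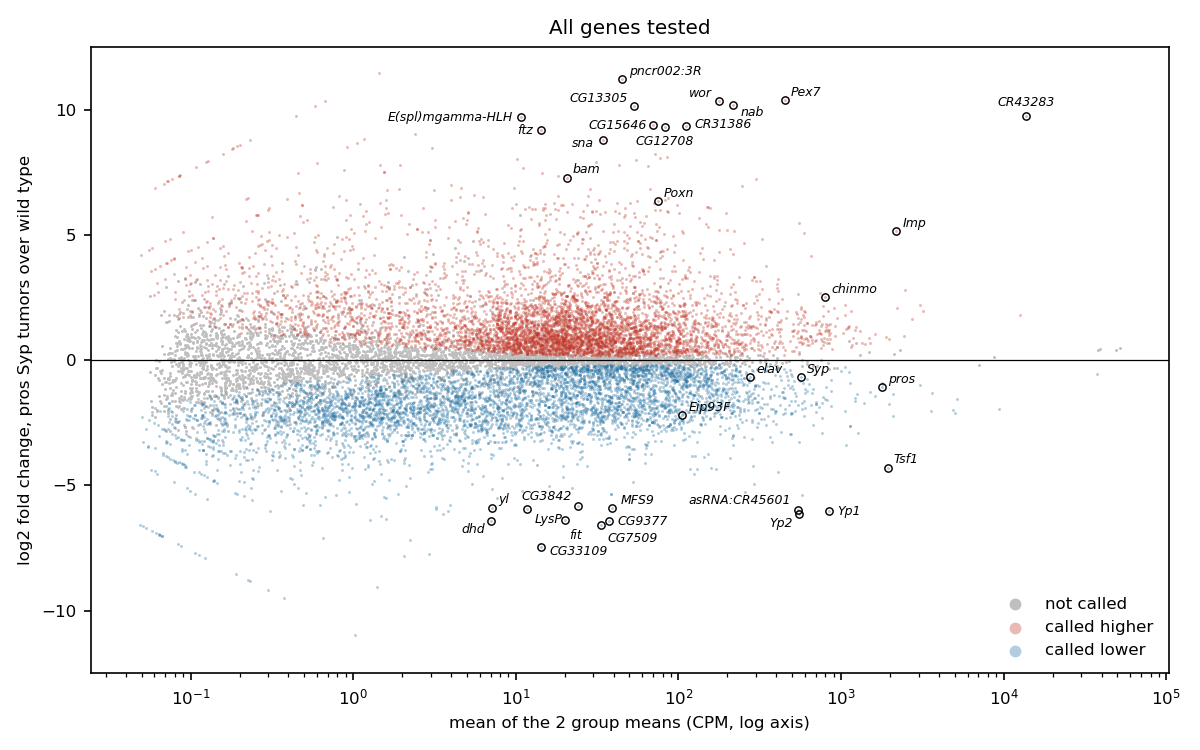
Log2 fold change of pros Syp tumors over wild type (vertical axis) against the mean of the 2 group means in CPM on a log axis (horizontal axis) for the 14289 genes tested, 1 point per gene. The 5685 genes called higher (red) and 5250 called lower (blue) spread over the whole range of levels, with genes not called (gray) near 0 or at low levels, and labelled genes run from pncr002:3R at 11.23 to CG33109 at -7.45.

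The targeted genes check the labels only in part. The pros gene had 1045 and 1254 CPM in the pros Syp tumors and 2505 and 2335 CPM in wild type, and fell (log2 fold change -1.08 ± 0.14, adjusted p = 0.00194). Syp had 422 and 459 CPM in the pros Syp tumors and 699 and 689 CPM in wild type, a fall of 0.66 on the log2 scale (± 0.09, adjusted p = 0.00234). Both genes were thus lower in both tumor libraries without being lost, and any reads of the RNAi constructs cannot be told apart from those of the genes. Dcr-2, present as a transgene in the tumors, rose to 723 and 801 CPM in the pros Syp tumors, against 418 and 436 CPM in wild type (log2 fold change 0.83 ± 0.10, adjusted p = 0.00137). Poxn, the gene whose regulatory sequence drives Gal4, had 151 and 144 CPM in the pros Syp tumors and 1.85 and 1.77 CPM in wild type (log2 fold change 6.34 ± 0.08, adjusted p = 5.7e-05). The groups did not overlap for any of these 4 genes, as for 12870 of all 14289 genes tested (90.1%). Each later statement that the 2 groups lay apart is to be read against that share.

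Genes of the early side of the temporal switch were mostly above wild type in the pros Syp tumors. Imp (chrX:10787869-10824277, release 6 of the fly genome) had 4318 and 4203 CPM in the pros Syp tumors and 121 and 115 CPM in wild type (log2 fold change 5.17 ± 0.11, adjusted p = 5.7e-05). chinmo, which encodes a BTB zinc-finger factor of young NBs and neurons, had 1448 and 1258 CPM in the pros Syp tumors and 239.7 and 235 CPM in wild type (log2 fold change 2.51 ± 0.10, adjusted p = 8.13e-05). Both genes were far above wild type in each tumor library, and the 2 tumor libraries lay close to each other. lin-28, an RNA-binding regulator of developmental timing, reached 31.4 and 26.3 CPM in the pros Syp tumors and 0.165 and 0.159 CPM in wild type (log2 fold change 7.46 ± 0.15, adjusted p = 5.7e-05). castor (cas), a temporal transcription factor of the embryo, had 85.3 and 85.4 CPM in the pros Syp tumors and 0.433 and 0.340 CPM in wild type (log2 fold change 7.78 ± 0.14, adjusted p = 5.7e-05). svp, an orphan nuclear receptor that switches the temporal identity of NBs, was at 101 and 99.0 CPM in the pros Syp tumors and 29.6 and 28.2 CPM in wild type (log2 fold change 1.79 ± 0.06, adjusted p = 6.91e-05). Wild-type VNCs thus kept a measurable level of chinmo and svp, but under 1 CPM of lin-28 and cas. The paper reports that in pros tumors cas and svp RNA did not separate Imp-positive from Eip93F-positive tumor NBs.

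Of the 19 early temporal genes listed, some of them from the study's own account of the early state and so no independent evidence of its direction, 14 rose, 3 fell and 2 were not called, with a median log2 fold change of 2.44. Oatp74D, the importer that lets the steroid ecdysone into cells, rose to 466 and 311 CPM in the pros Syp tumors, against 10.6 and 10.6 CPM in wild type (log2 fold change 5.19 ± 0.23, adjusted p = 9.84e-05). E23, an ABC transporter that counters the ecdysone response, had 88.8 and 106 CPM in the pros Syp tumors and 18.5 and 15.9 CPM in wild type (log2 fold change 2.50 ± 0.14, adjusted p = 0.000174). plum, an immunoglobulin-family protein known from axon pruning, had 567 and 509.8 CPM in the pros Syp tumors and 62.0 and 58.1 CPM in wild type (log2 fold change 3.16 ± 0.09, adjusted p = 5.72e-05). These 3 genes were above wild type in both tumor libraries, and Oatp74D was the one whose 2 tumor libraries lay furthest apart. The 3 members that fell were hunchback (hb), Krüppel (Kr) and pdm2, which like castor act in the embryonic temporal series, with log2 fold changes of -2.58 ± 0.14, -2.40 ± 0.16 and -2.67 ± 0.22.

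Late temporal genes did not move as a block. Of 11 listed, 6 fell, 4 rose and 1 was not called, with a median log2 fold change of -0.66. Syp, itself a knockdown target, is 1 of the 6, and the median is its own value. Eip93F, the ecdysone-induced factor of the last NB stage, was at 37.9 and 39.0 CPM in the pros Syp tumors and 174 and 172 CPM in wild type (log2 fold change -2.17 ± 0.06, adjusted p = 5.82e-05). Both tumor libraries were well below both wild-type ones. mamo, a zinc-finger factor known from the temporal fates of mushroom body neurons, and let-7-C, the locus of let-7 and its partner miRNAs that repress chinmo in maturing neurons, fell with log2 fold changes of -2.02 ± 0.13 and -1.70 ± 0.10. Hr3, an ecdysone-induced nuclear receptor, fell as well (-2.50 ± 0.16), although 82.7% of its exon length is shared with CG12912 and their reads cannot be told apart. In the other direction, broad (br), a zinc-finger factor of the ecdysone cascade, had 458 and 359.9 CPM in the pros Syp tumors and 92.3 and 82.7 CPM in wild type (log2 fold change 2.22 ± 0.14, adjusted p = 0.000229). string (stg), the Cdc25 phosphatase that starts mitosis, rose by a log2 fold change of 3.20 ± 0.36. CG15646, an uncharacterised gene listed here from the study's late state, had 142 and 138 CPM in the pros Syp tumors and 0.156 and 0.250 CPM in wild type (log2 fold change 9.40 ± 0.19, adjusted p = 5.7e-05). Over 21 genes of ecdysone signalling, 11 fell, 6 rose and 4 were not called, with a median of -0.60, and the 6 became 3 when libraries were scaled by their totals alone.

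**Figure D2:**
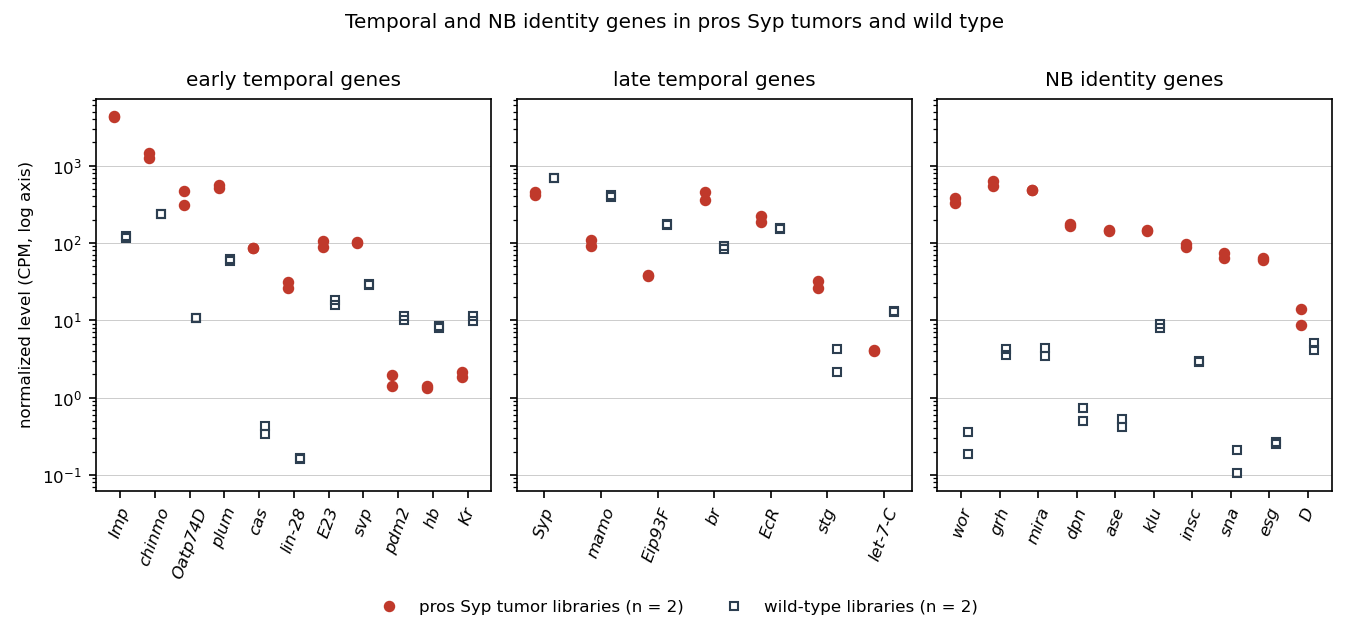
Levels of early temporal, late temporal and NB identity genes in single libraries, in CPM on a log axis, with the 2 pros Syp tumor libraries (circles) left of the 2 wild-type libraries (squares) for each gene. Imp lies at 4318 and 4203 CPM in the pros Syp tumors and 121 and 115 CPM in wild type, whereas pdm2, hb, Kr, Syp, mamo, Eip93F and let-7-C lie lower in the pros Syp tumors.

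NB identity genes rose as a group. All 14 tested members of a list of 15 were higher in the pros Syp tumors (tll had too few counts to be tested), with a median log2 fold change of 7.57. worniu (wor), a Snail-family factor of NBs, had 380.4 and 325 CPM in the pros Syp tumors and 0.364 and 0.189 CPM in wild type (log2 fold change 10.33 ± 0.31, adjusted p = 5.82e-05). Its family members snail (sna) and escargot (esg) rose by 8.77 ± 0.26 and 7.90 ± 0.09 on the log2 scale, and sna and wor lie 51012 bases apart with 1 tested gene between them. miranda (mira), the adaptor that carries Prospero into the daughter cell, had 488 and 485 CPM in the pros Syp tumors and 4.40 and 3.44 CPM in wild type (log2 fold change 6.95 ± 0.17, adjusted p = 5.7e-05). asense (ase), a proneural factor of NBs, rose by 8.24 ± 0.14. deadpan (dpn), a self-renewal repressor, rose by 8.11 ± 0.21, with 59.3% of its exon length shared with an antisense RNA gene whose reads cannot be told apart from its own. grainy head (grh), a factor that maintains NB proliferation, rose by 7.24 ± 0.15, while klumpfuss (klu) and inscuteable (insc), which orients the division, rose by 4.08 ± 0.09 and 4.98 ± 0.09. Each of these genes lay higher in both tumor libraries than in both wild-type ones. At a minimum of 10 counts in every library, 12 members could be tested and all 12 rose.

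The Notch pathway, which keeps NBs self-renewing and is silenced in their progeny, went with them in most of its members. Of 24 listed genes tested, 17 rose, 2 fell and 5 were not called, with a median of 1.23. E(spl)mgamma-HLH, a Notch target expressed in NBs, had 19.9 and 22.9 CPM in the pros Syp tumors and 0.0347 and 0.0151 CPM in wild type (log2 fold change 9.72 ± 0.28, adjusted p = 5.7e-05). The wild-type level rests on 4 and 2 counts, so the size of this fold is uncertain. Another target of the same complex, E(spl)m8-HLH, had 4.17 and 5.41 CPM in the pros Syp tumors and at most 3 counts in either wild-type library, so it was at least 197-fold higher against a floor of 3 counts per library. Of 9 tested genes of the E(spl) complex, 7 rose and none fell, and with at least 10 counts in every library 3 could be tested, of which 2 rose. Delta (Dl), the ligand, rose by 5.44 ± 0.17, sanpodo (spdo), which lets Notch signal after asymmetric division, by 6.41 ± 0.10, the receptor Notch (N) by 1.90 ± 0.08 and the DNA-binding partner Su(H) by 1.22 ± 0.07. fringe (fng), a glycosyltransferase that modifies the receptor, fell (-2.19 ± 0.06).

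Most of the machinery of asymmetric division was also higher: 12 of 14 listed genes rose, 1 fell and 1 was not called, with a median of 1.49. mushroom body defect (mud), which anchors the spindle, rose by 6.09 ± 0.42, and partner of numb (pon) rose by 5.11 ± 0.09. Among polarity genes, bazooka (baz) rose by 2.28 ± 0.09 and l(2)gl by 2.72 ± 0.07, whereas the kinase gene aPKC fell (-0.86 ± 0.07) and par-6 was not called (-0.07 ± 0.06, adjusted p = 0.344). Of the determinants handed to the daughter cell, brain tumor (brat) rose by 1.94 ± 0.11 and numb by 0.58 ± 0.06.

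Differentiation factors split, with 5 of 9 rising and 4 falling. The 4 include pros, itself a knockdown target. nerfin-1, a zinc-finger factor that stops newborn neurons from reverting to NBs, had 56.6 and 58.5 CPM in the pros Syp tumors and 0.927 and 0.923 CPM in wild type (log2 fold change 5.95 ± 0.08, adjusted p = 5.7e-05). lola, needed to hold neurons in their differentiated state, rose by 1.20 ± 0.08, and tramtrack (ttk), a repressor, by 0.58 ± 0.07. The pan-neuronal RNA-binding genes went the other way, with log2 fold changes of -0.66 ± 0.07 for elav, -1.86 ± 0.08 for fne and -2.66 ± 0.09 for Rbp9. The fall of elav was the smallest of these 3.

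Genes of the cell cycle were higher almost without exception in tumors that are carried by adult, otherwise postmitotic VNCs. Of 42 DNA replication genes 41 rose and 1 fell (median 3.35), and of 54 mitosis genes 50 rose, 2 fell and 2 were not called (median 3.37). PCNA, the sliding clamp of replication, had 127 and 120.0 CPM in the pros Syp tumors and 2.75 and 1.76 CPM in wild type (log2 fold change 5.77 ± 0.25, adjusted p = 9.51e-05). The helicase subunit gene Mcm2 rose by 5.35 ± 0.36, cyclin E (CycE) by 4.62 ± 0.24 and the ribonucleotide reductase subunit RnrL by 4.77 ± 0.12. Psf3, of the GINS complex, was the replication gene that fell (-1.44 ± 0.07), with 34.9% of its exon length shared with CG17841. Among mitotic genes, Cdk1 had 49.5 and 52.1 CPM in the pros Syp tumors and 1.45 and 0.567 CPM in wild type (log2 fold change 5.67 ± 0.45, adjusted p = 0.000432). The kinase gene polo rose by 5.89 ± 0.42, tumbleweed (tum), of the centralspindlin complex, by 6.49 ± 0.33, and the Cdk subunit Cks30A by 7.73 ± 0.17. CycD, a G1 cyclin tied to growth, rose by 2.43 ± 0.12, a smaller step than these. centrosomin (cnn) and Mis12, a kinetochore gene, were the 2 that fell, by 0.91 and 0.36 on the log2 scale, and the fall of Mis12 was no longer called without wild-type replicate 1 or replicate 2.

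Replication-dependent histones followed: 110 of 111 clustered histone genes tested rose and none fell, with a median of 4.25. Their summed level was 8105 and 9652 CPM in the pros Syp tumors, against 406 and 433 CPM in wild type. These genes are near-identical copies in one tandem cluster, so single copies are not described. His2Av, a variant histone gene outside the cluster, rose by 2.90 ± 0.06, and the replacement histone genes His3.3A and His3.3B by 2.21 ± 0.06 and 0.84 ± 0.08. Chromatin genes of NBs rose at 22 of 24 members, with 1 falling and a median of 1.44. HmgD, a high-mobility group protein abundant in cycling embryonic cells, had 622 and 641 CPM in the pros Syp tumors and 23.01 and 21.36 CPM in wild type (log2 fold change 4.83 ± 0.09, adjusted p = 5.7e-05). Psc, of the Polycomb complex PRC1, rose by 3.25 ± 0.09, the methyltransferase gene E(z), of PRC2, by 1.54 ± 0.07 and zelda (zld), a pioneer factor of the early embryo and of NBs, by 2.15 ± 0.14. The lamins split: Lam, a B-type lamin, rose by 3.20 ± 0.09, and LamC, the A-type lamin of differentiated cells, was the 1 member that fell (-1.40 ± 0.07).

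Genes of cell growth were higher in the pros Syp tumors. Of 27 nucleolar growth genes, 25 rose, none fell and 2 were not called (median 2.37). Myc, which drives ribosome production, had 1475 and 1099.6 CPM in the pros Syp tumors and 179 and 217 CPM in wild type (log2 fold change 2.70 ± 0.19, adjusted p = 0.00028), with 61.2% of its exon length shared with CG12535. Fibrillarin (Fib), which methylates ribosomal RNA, rose by 3.71 ± 0.11, the pseudouridine synthase gene Nop60B by 3.53 ± 0.07 and the RNA polymerase I subunit RpI1 by 2.61 ± 0.06. The polymerase I initiation factor gene Tif-IA was not called (-0.02 ± 0.07, adjusted p = 0.808). Small nucleolar RNAs, which guide these modifications, rose at 205 of 266 genes tested and fell at 22 (median 1.69), with 13 falling when wild-type replicate 1 was left out. snoRNA:Psi28S-2566 had 122 and 122 CPM in the pros Syp tumors and 7.51 and 6.30 CPM in wild type (log2 fold change 4.14 ± 0.12, adjusted p = 5.7e-05). The groups lay far apart at this gene, as at Fib and Nop60B.

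Cytosolic ribosomal protein genes rose at 83 of 89 members tested, with 3 falling and 3 not called, at a median of 1.21. A paralog pair moved apart: RpS5a rose to 1467 and 1448 CPM in the pros Syp tumors, against 326 and 361 CPM in wild type (log2 fold change 2.08 ± 0.09, adjusted p = 9.77e-05). Its paralog RpS5b, known from the germline, had 1.03 and 1.16 CPM in the pros Syp tumors and 5.99 and 2.63 CPM in wild type (log2 fold change -1.98 ± 0.45, adjusted p = 0.0134). Uniquely mapped reads were counted, which limits but does not remove the exchange of reads between paralogs. Mitochondrial ribosomal protein genes moved less, with 49 of 73 higher, 5 lower and a median of 0.49, the 5 becoming 1 without wild-type replicate 2. Translation initiation factors rose at 31 of 41 genes (median 0.85), aminoacyl-tRNA synthetases at 25 of 33 (0.97) and proteasome subunits at 34 of 39 (1.01). Examples are eIF3d1 (1.99 ± 0.09), IleRS (2.64 ± 0.08) and Prosalpha6 (1.90 ± 0.07), whereas eIF4EHP, a cap-binding repressor of translation, fell (-0.86 ± 0.12).

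Of 25 insulin and TOR genes, 16 rose, 5 fell and 4 were not called, with a median of 0.48. The insulin receptor gene InR had 479.7 and 371 CPM in the pros Syp tumors and 122 and 127 CPM in wild type (log2 fold change 1.76 ± 0.13, adjusted p = 0.000376). Akt1 and S6k, kinases that act downstream of it, rose by 1.43 ± 0.07 and 1.80 ± 0.06. Thor, the 4E-BP repressor of translation that growth signalling keeps off, rose too, with 75.5 and 61.7 CPM in the pros Syp tumors and 9.15 and 7.20 CPM in wild type (log2 fold change 3.06 ± 0.17, adjusted p = 0.000155). Of the 5 that fell, 4 were insulin-like peptide genes, among them Ilp6 (-2.37 ± 0.28), known from glia and fat body, and Ilp7 (-2.99 ± 0.23), made by neurons.

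Most genes of energy metabolism were lower in the pros Syp tumors than in wild type. Of 20 glycolysis genes, 15 fell, 2 rose and 3 were not called (median -0.87), and of 26 genes of the tricarboxylic acid cycle and glutamate metabolism 21 fell, 3 rose and 2 were not called (median -0.70). Aldolase (Ald) fell to 340.0 and 410.1 CPM in the pros Syp tumors, against 824 and 821 CPM in wild type (log2 fold change -1.14 ± 0.13, adjusted p = 0.0012). Hex-A, of the first step, fell with -1.01 ± 0.08 and Eno with -0.82 ± 0.09, while Pgk was not called (0.09 ± 0.09, adjusted p = 0.415). ImpL3, the lactate dehydrogenase gene, was 1 of the 2 that rose (0.64 ± 0.11). In glutamate metabolism, Gdh, glutamate dehydrogenase, rose to 269 and 279.6 CPM in the pros Syp tumors, against 157 and 149 CPM in wild type (log2 fold change 0.84 ± 0.07, adjusted p = 0.000595), while the glutamine synthetase genes Gs1 and Gs2 fell (-1.90 ± 0.12 and -2.15 ± 0.10), Gs2 being a gene of glia in the nervous system. The nuclear genes of the respiratory chain fell at 51 of 77 members, rose at 2 and had a median of -0.41, but fell at 34 without wild-type replicate 2. All 13 protein-coding genes of the mitochondrial genome fell (median -1.42), with mt:ND1 at 404 and 429 CPM in the pros Syp tumors and 1451 and 1939 CPM in wild type (log2 fold change -2.03 ± 0.17, adjusted p = 0.000478). Against pros tumors these lists leaned upwards instead. There 9 of 20 glycolysis genes were higher in the pros Syp tumors and 0 lower (median 0.49). The counts were 14 and 0 of 26 for the tricarboxylic acid cycle and glutamate list (0.35), and 30 and 1 of 78 for the nuclear respiratory chain (0.30). Of the 13 mitochondrial genes 4 were higher and 0 lower. Over all genes in that comparison 10.9% were higher and 12.4% lower.

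**Figure D3:**
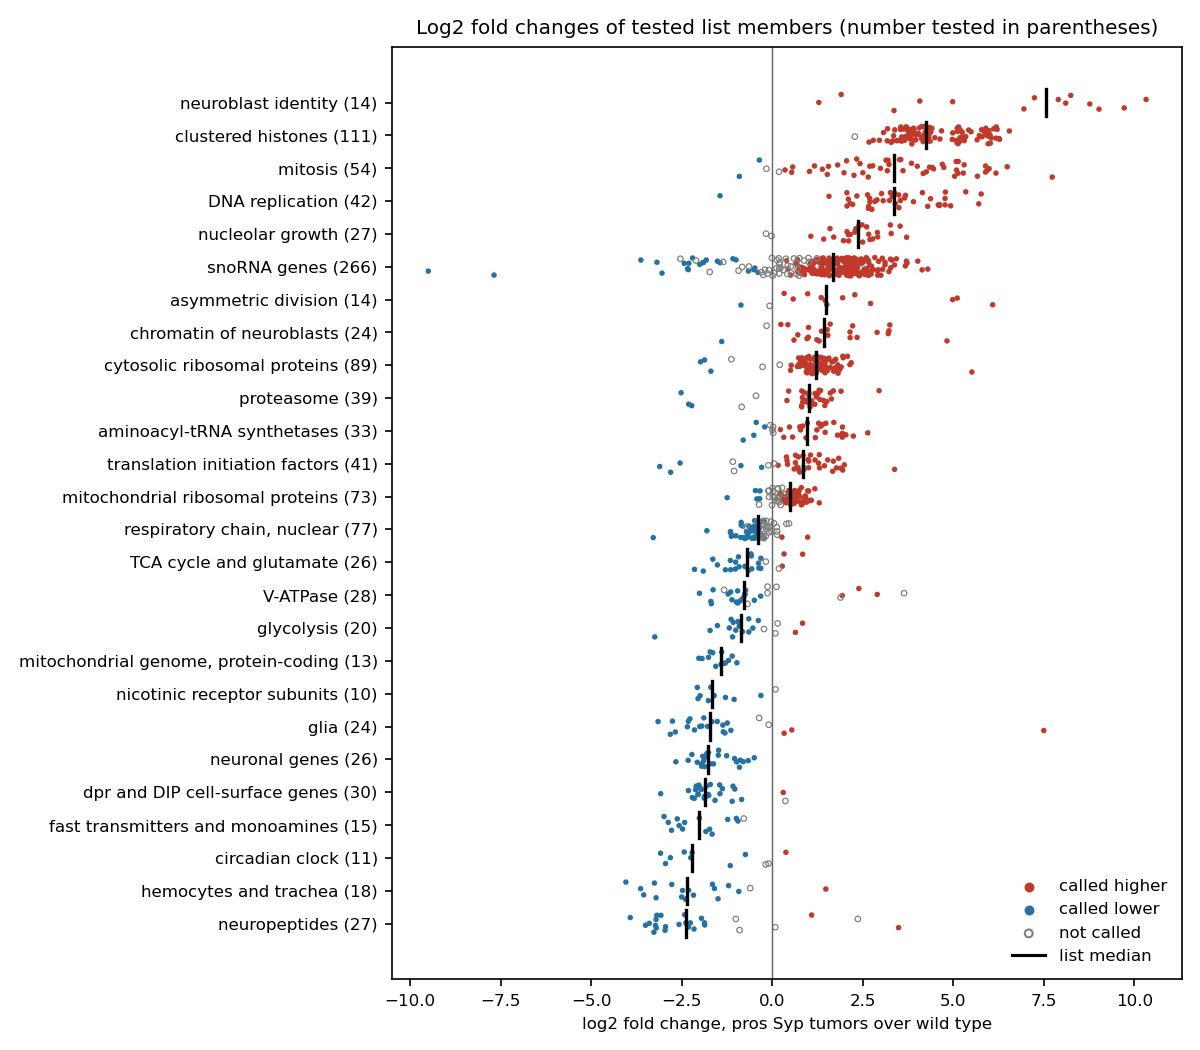
Log2 fold changes of pros Syp tumors over wild type for the tested members of the gene groups (1 point per gene, groups in rows), in red where called higher, blue where called lower and open where not called, with a bar at the median of each group. The medians run from 7.57 for NB identity and 4.25 for clustered histones down to -2.38 for neuropeptides.

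Genes of mature neurons were lower in the pros Syp tumors. All 26 neuronal genes listed fell, with a median of -1.77, and their summed level was 6764 and 8203 CPM in the pros Syp tumors, against 21899.6 and 21527 CPM in wild type. Syt1, the calcium sensor of transmitter release, had 317 and 449 CPM in the pros Syp tumors and 1364 and 1361 CPM in wild type (log2 fold change -1.83 ± 0.20, adjusted p = 0.00114). The active zone gene bruchpilot (brp), the sodium channel gene para and the microtubule-associated futsch fell with log2 fold changes of -1.81 ± 0.18, -2.07 ± 0.14 and -2.22 ± 0.20. Without wild-type replicate 1, 25 of the 26 were still called.

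Transmitter genes fell at 14 of 15 members and rose at none (median -2.01). The vesicular glutamate transporter VGlut fell with -2.57 ± 0.13 and the GABA-making enzyme gene Gad1 with -1.73 ± 0.28. Tbh, which makes octopamine, and Vmat, the vesicular monoamine transporter, fell with -2.99 ± 0.17 and -2.87 ± 0.22. VAChT, the vesicular acetylcholine transporter, fell with -0.99 ± 0.22 (adjusted p = 0.0128), a call lost without wild-type replicate 1 (0.0537) or replicate 2 (0.0510), and ChAT, which makes acetylcholine, was not called (-0.78 ± 0.29, adjusted p = 0.0592), though it was under 0.05 in 7 of the alternative settings. Nicotinic acetylcholine receptor subunits fell at 9 of 10 genes. Among them nAChRalpha4 fell with -2.07 ± 0.07, and nAChRalpha3 was the 1 not called, with 126 and 114 CPM in the pros Syp tumors and 111 and 114 CPM in wild type (log2 fold change 0.09 ± 0.07, adjusted p = 0.283).

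Of 27 neuropeptide genes tested, counting the receptor gene NPFR, which fell, 21 fell, 2 rose and 4 were not called, with a median of -2.38. FMRFa, made by a small set of thoracic neurons, had 29.0 and 22.7 CPM in the pros Syp tumors and 383 and 397 CPM in wild type (log2 fold change -3.92 ± 0.14, adjusted p = 6.78e-05). Nplp1, a precursor of several peptides, fell with -3.27 ± 0.09. ETH, the ecdysis-triggering hormone gene, was 1 of the 2 that rose (3.49 ± 0.24), but 90.5% of its exon length is shared with an antisense RNA gene and the reads cannot be told apart. The dpr and DIP genes, cell-surface partners of the immunoglobulin family that label neuron types, fell at 28 of 30 members (median -1.86). dpr21 was the called member of largest fall (-3.08 ± 0.16), and DIP-alpha, the 1 that rose (0.30 ± 0.10, adjusted p = 0.0385), lost its call in several alternative settings, leaving out a wild-type library among them. Innexins, the gap junction proteins of insects, did not share a direction, with shakB, of electrical synapses, falling (-2.63 ± 0.14) and ogre rising (0.59 ± 0.06).

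Glial genes were lower as well, with 19 of 24 falling, 3 rising and a median of -1.73. repo, the factor that marks most glia, had 21.1 and 24.0 CPM in the pros Syp tumors and 146 and 142 CPM in wild type (log2 fold change -2.68 ± 0.10, adjusted p = 7.16e-05). wrapper, a glial surface protein, and axo, a protein made by glia, fell with -2.76 ± 0.15 and -3.15 ± 0.12. Eaat1, the glial glutamate transporter, was 1 of the 3 that rose, with 451 and 509 CPM in the pros Syp tumors and 326 and 333 CPM in wild type (log2 fold change 0.54 ± 0.10, adjusted p = 0.00627). glial cells missing (gcm), the switch from neuronal to glial fate in the embryo, was at 2.81 and 3.36 CPM in the pros Syp tumors, against 0 and 4 counts in wild type (adjusted p = 0.000989), too few there for a fold to be given. The GABA transporter gene Gat was not called (-0.36 ± 0.22, adjusted p = 0.192).

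The VNCs were dissected from the fly and could hold muscle, fat body, blood cells, trachea or pieces of gonad, so markers of these were followed beside the results. Summed over 9 NB markers the level was 2204 and 2026 CPM in the pros Syp tumors, against 22.1 and 20.1 CPM in wild type. The 10 neuronal markers summed to 2099 and 2727 CPM in the pros Syp tumors and 7752 and 7692 CPM in wild type, and the 8 glial markers to 1002 and 1221 CPM in the pros Syp tumors and 2627 and 2627 CPM in wild type. The label of the tissue is met in both groups, which hold neuronal and glial RNA in quantity. The 4 hemocyte markers summed to 26.4 and 35.7 CPM in the pros Syp tumors, against 183 and 218 CPM in wild type, and the 3 tracheal markers to 8.11 and 10.3 CPM, against 27.6 and 30.1 CPM. None of the defining markers of these classes was at or under 3 counts in both pros Syp tumor libraries. In both wild-type libraries this held for 2 of the ovary and testis markers alone.

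Fat body and yolk genes were among the largest falls. Of 16 listed, 9 fell, 4 rose and 3 were not called (median -2.28), and the 7 markers of the class summed to 332 and 245 CPM in the pros Syp tumors, against 6609 and 5705 CPM in wild type. Yp1, a yolk protein made by the female fat body, had 38.5 and 13.6 CPM in the pros Syp tumors and 1686 and 1625 CPM in wild type (adjusted p = 0.000869), with 54.3% of its exon length shared with asRNA:CR45601. The other yolk protein genes Yp2 and Yp3 fell with -6.15 ± 0.48 and -5.37 ± 0.64, and the lipid carrier gene apolpp fell with -3.38 ± 0.13. Transferrin (Tsf1), an iron-binding hemolymph protein, had 172.1 and 205.2 CPM in the pros Syp tumors and 3496 and 3849 CPM in wild type (log2 fold change -4.29 ± 0.16, adjusted p = 7.04e-05). Larval hemolymph genes ran both ways: Lsp2, with 84.6% of its exon length shared with an antisense RNA gene, fell (-4.33 ± 0.27), and Lsp1gamma rose to 22.7 and 18.6 CPM in the pros Syp tumors, against 0.572 and 0.764 CPM in wild type (log2 fold change 4.94 ± 0.20, adjusted p = 8.13e-05). Fbp1, the receptor for these storage proteins, had 5.19 and 20.3 CPM in the pros Syp tumors and 0.277 and 0.174 CPM in wild type (log2 fold change 5.82 ± 0.87, adjusted p = 0.00332). Whether fat body carried along in dissection, or the share of females, has a part in these differences was not tested.

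Muscle genes did not share a direction. Of 28 listed, 12 rose, 7 fell and 9 were not called, with 8 rising without wild-type replicate 1. Mhc, muscle myosin, had 376 and 796 CPM in the pros Syp tumors and 120.3 and 192 CPM in wild type (log2 fold change 1.91 ± 0.45, adjusted p = 0.0154). The flight muscle actin Act88F had 94.3 and 218 CPM in the pros Syp tumors and 29.9 and 15.3 CPM in wild type (log2 fold change 2.79 ± 0.56, adjusted p = 0.00899). In both genes tumor replicate 2 was more than 2-fold above replicate 1, and the call of Mhc was lost without wild-type replicate 1 (adjusted p = 0.0759). sls, which encodes the fly's titin-like proteins, fell with -1.41 ± 0.24, arginine kinase (Argk) with -1.46 ± 0.11 and the muscle factor Mef2, also used in neurons, with -1.05 ± 0.07.

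Genes of ovary and testis were split, with 11 of 27 rising, 12 falling and 4 not called, and with 5 falling when wild-type replicate 1 was left out. bag of marbles (bam), the differentiation switch of germline cells, had 41.6 and 40.1 CPM in the pros Syp tumors and 0.303 and 0.219 CPM in wild type (log2 fold change 7.29 ± 0.15, adjusted p = 5.7e-05). The piRNA pathway genes krimp and spn-E rose by 3.64 ± 0.21 and 3.86 ± 0.22. oskar (osk) and vasa (vas), of oocyte and germ plasm, fell with -5.93 ± 1.20 and -4.76 ± 0.55, and the call of osk was lost without wild-type replicate 1 (adjusted p = 0.0629). The lncRNA genes roX1 and roX2 of male dosage compensation moved apart, with log2 fold changes of 0.51 ± 0.09 and -1.08 ± 0.14, and roX1 was no longer called without wild-type replicate 2 (adjusted p = 0.0535). Of the 9 markers of the class 8 were tested, 2 rising and 4 falling. The 9 summed to 46.6 and 44.1 CPM in the pros Syp tumors, against 24.4 and 12.9 CPM in wild type. bam alone supplied most of the sum in the pros Syp tumors and little of that in wild type.

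**Figure D4:**
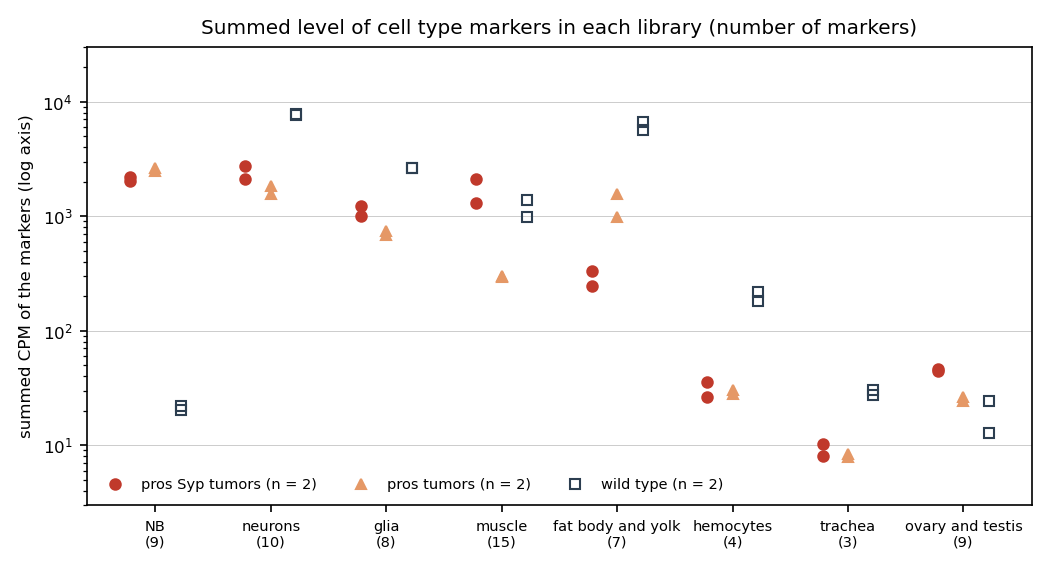
Summed level of the marker genes of 8 cell classes in single libraries, in CPM on a log axis, with pros Syp tumors left, pros tumors in the middle and wild type right, 1 point per library. NB markers sum to 2204 and 2026 CPM in the pros Syp tumors and to 22.1 and 20.1 CPM in wild type, while the sums of neuronal, glial, fat body, hemocyte and tracheal markers lie lower in the pros Syp tumors than in wild type.

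**Figure D5:**
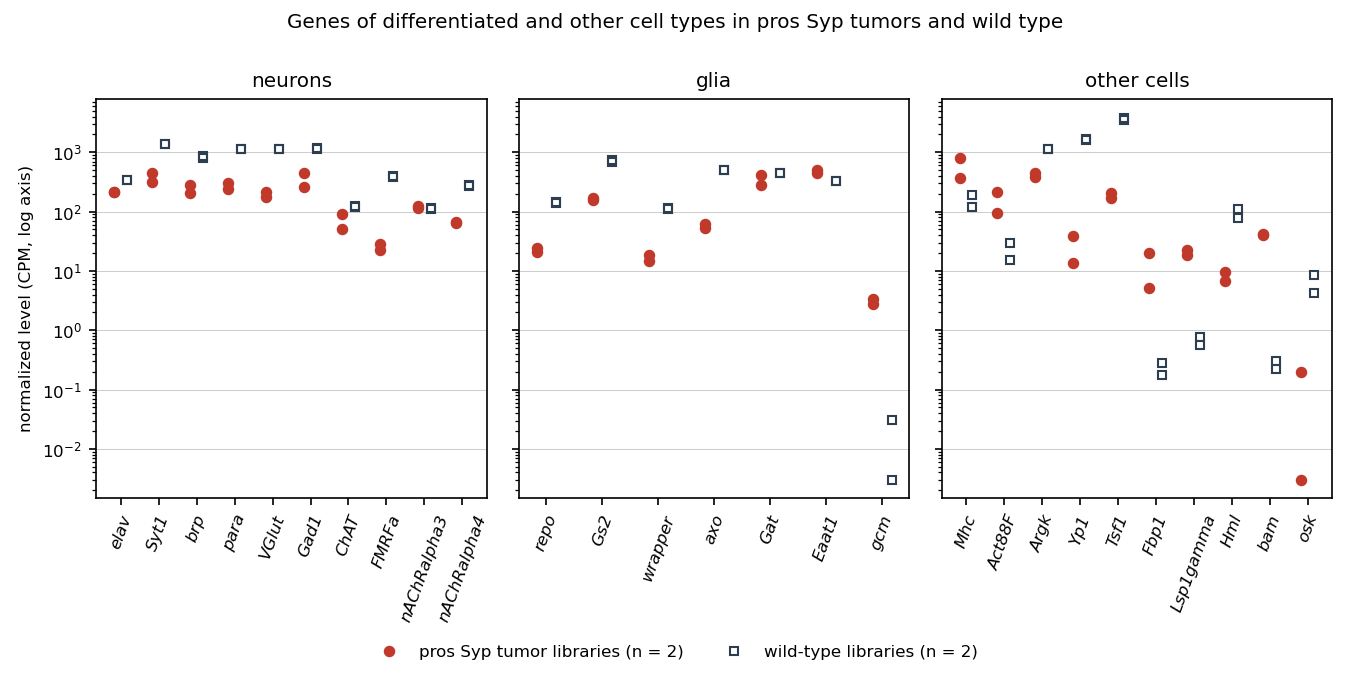
Levels of single genes of neurons, glia and other cells in each library, in CPM on a log axis, with the 2 pros Syp tumor libraries (circles) left of the 2 wild-type libraries (squares) for each gene. Syt1, repo and Yp1 lie lower in the pros Syp tumors and bam higher, and libraries with 0 counts (osk in 1 pros Syp tumor library, gcm in 1 wild-type library) are drawn at the bottom of the axis.

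Among 10 Hox and related genes tested, 4 rose, 4 fell and 2 were not called. Antp, of the thorax, rose by 1.24 ± 0.07, Ubx was not called (-0.28 ± 0.15, adjusted p = 0.145), and the abdominal genes abd-A and Abd-B fell with -2.70 ± 0.31 and -2.80 ± 0.15. fushi tarazu (ftz), a segmentation gene also used in embryonic neural precursors, had 26.2 and 31.2 CPM in the pros Syp tumors and 0.0433 and 0.0530 CPM in wild type (log2 fold change 9.18 ± 0.20, adjusted p = 5.7e-05). The wild-type level rests on 5 and 7 counts, so the size of this fold is uncertain. Clock genes fell at 8 of 11 members (median -2.21), with -2.81 ± 0.21 for tim, -3.09 ± 0.15 for Clk and -2.43 ± 0.06 for the photoreceptor gene cry. The hours of dissection are not given in the sources used here, and whether they differed between groups was not tested.

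Genes of apoptosis rose at 8 of 12 members, fell at 3 and had a median of 0.66. The initiator caspase gene Dronc rose by 1.19 ± 0.07 and the effector Dcp-1 by 1.87 ± 0.07, and sickle (skl), a death activator, by 1.92 ± 0.23. The activator gene hid and the Bcl-2 family gene Debcl fell (-1.50 ± 0.21 and -2.53 ± 0.20). In the list of stress and DNA damage genes 14 of 29 rose, 9 fell and 6 were not called, with 4 falling without wild-type replicate 1. The damage kinases tefu (ATM) and mei-41 (ATR) rose by 2.96 ± 0.09 and 2.66 ± 0.07. Of 17 antimicrobial peptide genes, targets of innate immune signalling, 13 were not called, 2 rose and 2 fell.

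The genes of largest change were chosen by rule: the 12 largest rises and 12 largest falls among called genes with a mean count of at least 500 whose groups did not overlap. NB genes make up part of the rises, with wor, sna and E(spl)mgamma-HLH among them, as are ftz and CG15646. The largest was pncr002:3R, a noncoding RNA gene, with 84.8 and 96.2 CPM in the pros Syp tumors and 0.0520 and 0.0227 CPM in wild type (log2 fold change 11.23 ± 0.24, adjusted p = 5.7e-05). Its wild-type level rests on 6 and 3 counts. Wild-type counts were also few for E(spl)mgamma-HLH (4 and 2), ftz (5 and 7) and CG13305 (16 and 7). The size and order of such folds are therefore uncertain. nab, a transcriptional cofactor used in NB lineages, had 410.0 and 449 CPM in the pros Syp tumors and 0.589 and 0.166 CPM in wild type (log2 fold change 10.18 ± 0.56, adjusted p = 0.000158). Pex7, a peroxisomal import receptor gene, had 845 and 954 CPM in the pros Syp tumors and 0.927 and 0.439 CPM in wild type (log2 fold change 10.37 ± 0.43, adjusted p = 8.56e-05). As the rule requires, both tumor libraries lay above both wild-type libraries in each of the 12, and in 6 of them wild-type replicate 1 was more than 2-fold above replicate 2, which held for 361 of all 14289 genes.

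The gene with the highest count of the 12 was CR43283, the lncRNA cherub, known as an RNA that is partitioned during NB division and builds up in NB tumors. It had 27241 and 27690.0 CPM in the pros Syp tumors and 41.7 and 22.5 CPM in wild type (log2 fold change 9.73 ± 0.47, adjusted p = 0.000115). Its neighbour CR31386, another noncoding gene, had 219 and 223 CPM in the pros Syp tumors and 0.459 and 0.219 CPM in wild type (log2 fold change 9.36 ± 0.33, adjusted p = 6.71e-05). The pair lies on chromosome 3R, with CR43283 at chr3R:11247631-11256123, CR31386 at chr3R:11269415-11305608 and no tested gene in the 13291 bases between.

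Adjacent genes recur in this set. Pex7 (chr3L:8647145-8651011) and CG13305 (chr3L:8644916-8646822) lie 322 bases apart, and CG13305 had 112 and 101 CPM in the pros Syp tumors and 0.139 and 0.0530 CPM in wild type (log2 fold change 10.13 ± 0.30, adjusted p = 5.82e-05). CG15646 (chrX:15667885-15671029) and CG12708 (chrX:15675476-15677737) lie 4446 bases apart with no tested gene between them. CG12708 had 168 and 161 CPM in the pros Syp tumors and 0.269 and 0.242 CPM in wild type (log2 fold change 9.32 ± 0.10, adjusted p = 5.7e-05). Whether transcripts run on from one gene of a pair into the other was not tested.

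The 12 largest falls include genes known from female fat body and ovary. CG33109 had 0.268 and 0.0386 CPM in the pros Syp tumors and 46.1 and 10.8 CPM in wild type (log2 fold change -7.45 ± 1.15, adjusted p = 0.00367). fit, female-specific independent of transformer, a gene of the fat body of the head, had 0.665 and 0.261 CPM in the pros Syp tumors and 44.8 and 34.4 CPM in wild type (log2 fold change -6.38 ± 0.42, adjusted p = 0.000255). deadhead (dhd), a germline thioredoxin, had 0.260 and 0.0579 CPM in the pros Syp tumors and 20.6 and 7.41 CPM in wild type (log2 fold change -6.41 ± 0.89, adjusted p = 0.00255), and yolkless (yl), the yolk receptor of the oocyte, fell with -5.88 ± 1.07. Both libraries of the pros Syp tumors lay below both of wild type at each, but the 2 wild-type libraries often lay apart from each other. The lysozyme gene LysP was such a case, with 0.451 and 0.299 CPM in the pros Syp tumors and 40.3 and 5.67 CPM in wild type (log2 fold change -5.93 ± 1.17, adjusted p = 0.00858). Wild-type replicate 1 was more than 2-fold above replicate 2 at 4 of the 12, and the part of dissection in this was not tested. The rest of the 12 are Yp1, Yp2, asRNA:CR45601, CG7509, CG9377, CG3842 and MFS9. Of these, asRNA:CR45601 lies within the exons of Yp1 and fell with -5.99 ± 0.56. CG7509, CG9377, CG3842 and MFS9 had log2 fold changes of -6.59 ± 0.26, -6.40 ± 0.43, -5.82 ± 0.27 and -5.92 ± 0.20.

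To see what the Syp knockdown adds to that of pros, the 2 libraries of pros Syp tumors were set against the 2 of pros tumors. Here 1489 genes were higher in the pros Syp tumors (10.9% of 13703 tested) and 1701 were lower (12.4%). Of lists raised over wild type, clustered histones were lower than in pros tumors at 74 of 111 genes and higher at 0. Mitosis genes were lower at 23 and higher at 2 of 54, cytosolic ribosomal proteins at 37 and 4 of 88. Translation initiation factors were lower at 19 and higher at 5 of 38. DNA replication genes were lower at 6 and higher at 5 of 42, nucleolar growth genes at 3 and 0 of 27. Far more calls were lost when either pros tumor library was left out than when either pros Syp tumor library was. Calls in this comparison therefore depend strongly on having both pros tumor libraries. Syp had 422 and 459 CPM in the pros Syp tumors and 2066 and 1762 CPM in the pros tumors (log2 fold change -2.12 ± 0.11, adjusted p = 0.00349). Imp had 4318 and 4203 CPM in the pros Syp tumors and 1682 and 1509 CPM in the pros tumors (log2 fold change 1.42 ± 0.08, adjusted p = 0.00399), and its log2 fold change was 1.35 without pros tumor replicate 2 (adjusted p = 0.0501). chinmo was not called, with 1448 and 1258 CPM in the pros Syp tumors and 1259.6 and 1265 CPM in the pros tumors (log2 fold change 0.10 ± 0.09, adjusted p = 0.435). The 2 kinds of tumor did not overlap for Syp and Imp, and overlapped for chinmo.

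Among the other temporal genes, Eip93F had 37.9 and 39.0 CPM in the pros Syp tumors and 247 and 242 CPM in the pros tumors (log2 fold change -2.67 ± 0.07, adjusted p = 0.00197), and it kept its call whichever library was left out. lin-28 and E23 were higher in the pros Syp tumors (1.47 ± 0.11 and 3.44 ± 0.11), as was nerfin-1 (1.62 ± 0.21). Of the late genes that rose over wild type, stg and CG15646 were lower than in the pros tumors (-0.99 ± 0.11 and -0.66 ± 0.10). br was not called (0.14 ± 0.13). Of the early genes, plum was higher (0.98 ± 0.08), while cas, svp and Oatp74D were not called (0.04 ± 0.07, -0.21 ± 0.06 and 0.50 ± 0.20). Of 14 NB identity genes tested between the tumors, 4 were higher in the pros Syp tumors and 4 lower, against 10.9% and 12.4% of all genes. The higher ones include sna (2.44 ± 0.10), esg (1.72 ± 0.07) and ase (0.34 ± 0.07). The lower ones include mira (-0.98 ± 0.06), insc (-0.42 ± 0.08) and klu (-0.27 ± 0.06). wor, dpn and grh, which separate tumor from wild type so widely, were not called, with log2 fold changes of 0.23 ± 0.11, -0.24 ± 0.07 and -0.11 ± 0.10. CR43283 was not called either (log2 fold change -0.02 ± 0.08, adjusted p = 0.863). Without pros tumor replicate 2 the calls of Syp, lin-28, E23, nerfin-1, sna and mira were lost, while their log2 fold changes were -2.22, 1.45, 3.46, 1.35, 2.43 and -1.01. The call of lin-28 was also lost without pros tumor replicate 1 (log2 fold change 1.49). The calls of stg, CG15646, plum, esg, ase, insc and klu were not followed in these fits.

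Marker sums of other cell classes also lay apart between the tumors. The 15 muscle markers summed to 1301 and 2116 CPM in the pros Syp tumors, against 303 and 296 CPM in the pros tumors and 984 and 1389.7 CPM in wild type. The 7 fat body and yolk markers summed to 332 and 245 CPM in the pros Syp tumors, against 1568 and 991 CPM in the pros tumors. Mhc had 376 and 796 CPM in the pros Syp tumors and 30.1 and 26.1 CPM in the pros tumors (log2 fold change 4.38 ± 0.41, adjusted p = 0.00775), and Fbp1 had 5.19 and 20.3 CPM in the pros Syp tumors and 0.0431 and 0.0516 CPM in the pros tumors (log2 fold change 8.04 ± 0.98, adjusted p = 0.0113). Both calls were lost with either pros tumor library left out, with log2 fold changes of 4.29 to 4.48 for Mhc and 7.91 to 8.17 for Fbp1. The sums did not overlap for NB (2204 and 2026 CPM in the pros Syp tumors, against 2633 and 2469 CPM in the pros tumors), neuronal (2099 and 2727, against 1563 and 1835 CPM) and glial markers (1002 and 1221, against 691 and 748 CPM) either. For ovary and testis they were 46.6 and 44.1 CPM in the pros Syp tumors, against 24.1 and 26.1 CPM in the pros tumors. Most of these sums came from bam alone, at 41.6 and 40.1 CPM against 20.8 and 21.9 CPM, so they do not stand for the class. The part of these cell classes, or of tissue outside the VNC, in the differences between tumors was not tested.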

How the data were processed

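Total RNA libraries of adult VNCs, depleted of ribosomal RNA according to the methods, were sequenced by the authors. They mapped reads with Subread and deposited whole-number counts per gene from featureCounts, over exons of the FlyBase r6.19 annotation, counting uniquely mapped mates singly, without strand, and counting a read in each gene it overlapped; exon-sharing and antisense genes are therefore uncertain. The labels name build dm3 and polyA RNA, while the annotation is of release 6 and the methods describe depletion of ribosomal RNA.

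Genes passing filterByExpr (minimum count 10) were tested on the deposited counts of 4 libraries with edgeR 4.0.16 (TMM, quasi-likelihood test, Benjamini-Hochberg) in R 4.3.3. Totals were between 86098417 and 128107088 counts over the 6 libraries. The test was checked on simulated data. Alternatives covered scaling, filters, DESeq2 1.42.0, a threshold of 0.001, a replicate block and leaving out each library. Named genes are the 12 largest called rises and falls with a mean count of at least 500, members of the gene lists, and the extremes of families. Gene lists and members were chosen with earlier results of these data known. Of 17494 symbols, 17404 matched the reference annotation, used for names and exon overlap.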

Additional observations from a re-analysis of the deposited data

How the results depend on the processing

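The counts of genes higher and lower in the pros Syp tumors stayed within 1.5 times under other scalings, filters, DESeq2 and a fit of all 6 libraries. At the threshold of 0.001 they were 3228 and 2058, and with the 2-fold rule 2623 and 1827; with adjusted p alone in place of the 2-fold rule, 5685 were higher. Leaving out each library in turn gave 4897 to 5771 higher and 4007 to 5359 lower, or 3289 to 3604 and 3165 to 3975 with the 2-fold rule. DESeq2 called 5498 higher and 5342 lower. The median of all genes lay between -0.10 (totals alone) and 0.11 (without wild-type replicate 2).

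For the named genes, of 2289 values under alternative settings 2229 kept direction and side of the threshold, 48 lost the call (most at 0.001), 12 gained one and 0 changed sign. For those named against pros tumors, 22 of 165 lost the call and 1 gained one. Of 527 list medians, 120 moved by more than the spread between replicates, and the sign changed under some setting for the targeted genes, ovary and testis, stress, antimicrobial peptide and Hox lists.

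Replicate numbers only name the samples (correlation of deviations -0.06). With the replicate block, 5413 genes were higher and 4940 lower, or 3416 and 3773 with the 2-fold rule.

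Limits are the 2 samples per group, called technical replicates for the tumors, a wild type of undescribed genotype and sex, genes with few counts (92 called genes had at most 3 counts in each wild-type library and 120 in each pros Syp tumor library), and counts without strand. Depth was even and high, so counting error is small beside the spread between samples for all but genes with few counts in either group. pncr002:3R, E(spl)mgamma-HLH and ftz in wild type are among these.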
